A study of Mus musculus with 6 samples.

Results

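The 9 genes described here encode enzymes and receptors of extracellular ATP, NAD and adenosine and, with Dpp4, a surface peptidase of T cells. They are Entpd1, Nt5e, Cd38, Ada, Dpp4, Adora2a, Adora2b, P2rx4 and P2rx7. They were chosen by symbol, matched through Ensembl identifiers, and all 9 were found among the 26128 genes with counts. All 9 also passed the filter on low counts, which kept 14671 genes. RNA was sequenced from double negative T (DNT) cells, T cells that carry CD3 but not CD4, CD8 or NK1.1. They had been converted in vitro from CD4+CD25- T cells of adult C57BL/6 mice by culture with mature dendritic cells of DBA/2 mice and IL-2, and were sorted as CD3+NK1.1-CD4-CD8-. After the sort, all cells were kept with anti-CD3/CD28 beads for 48 h. The 3 control libraries came from cells without IL-33, and the 3 IL-33 libraries from cells with IL-33 at 50 ng/ml. The comparison asks how the IL-33 cytokine changes the transcripts of these cells. It is not stated whether the libraries of a group came from separate mice or cultures, so p-values measure only the spread between these libraries, which may be technical.

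ATP leaves stressed, dying and activated cells and is read by P2X ion channels and P2Y receptors of neighbouring cells. CD39 (Entpd1) cuts ATP and ADP to AMP, and CD73 (Nt5e) cuts AMP to adenosine, a pair of steps best known from regulatory T cells. Adenosine binds the A2A and A2B receptors (Adora2a, Adora2b), which raise cAMP and restrain T cell activation, and adenosine deaminase (Ada) turns it into inosine. On mouse T cells the P2X7 channel opens to high ATP, and it is also opened when the enzyme ART2 attaches ADP-ribose from extracellular NAD to it, while CD38 consumes that NAD.

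The libraries held 20256342 to 22336050 counts. A total of 3 counts, taken as the limit of detection, was worth 0.135 to 0.148 CPM (counts scaled to the size of the library). The lowest count of any of the 9 genes in any library was 117, for Adora2b. The 10 T cell identity genes, such as Cd3g, Cd3d and Thy1, summed to 3457 to 3570 CPM in control and 3503 to 3606 CPM in IL-33 libraries. At an adjusted p under 0.05 in edgeR's quasi-likelihood test, used for all calls here, 1 rose and 4 fell. This was 50.0% of the list, where 27.5% of all genes tested passed. The label of CD8-negative cells was met only in part at the mRNA level. Cd8a stood at 545 ± 13.6 CPM in control and 400.2 ± 9.15 CPM in IL-33 libraries (SD, n = 3), against 9.69 and 16.3 CPM of Cd8b1 and 0.934 and 0.373 CPM of Cd4. Of the 5 marker genes of lineages removed by the sort, 4 were tested, and 1 rose and 3 fell, 100% of those tested. Klrb1c (NK1.1) was among those that fell, at 33.5 and 25.6 CPM, and Ncr1 had at most 10 counts. Of 18 dendritic and myeloid markers 8 were tested, and 4 rose and 2 fell, 75.0% of those tested. The sum over this list moved from between 104 and 109 CPM to between 91.4 and 95.2 CPM, led by Itgax at 54.6 and 26.0 CPM. Lyz2, Adgre1, Flt3, Siglech, Fcgr1 and H2-Aa had at most 10 counts in any library, and Clec9a and Cd209a had no entry in the table. Mast cell and basophil markers summed to 38.2 to 41.1 CPM in control and 26.7 to 31.6 CPM in IL-33 libraries. Of these 9 markers 3 were tested and 2 fell, 66.7% of those tested. B cell markers summed to 15.9 to 16.9 and 17.2 to 21.8 CPM, and erythroid markers to 1.05 to 1.41 and 0.605 to 1.15 CPM.

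With IL-33, Entpd1 and Dpp4 rose and P2rx7 fell, while the other 6 genes did not pass the test. This made 3 of 9 genes with an adjusted p under 0.05 (edgeR's quasi-likelihood test), where 27.5% of all genes tested passed, 13.6% upward and 13.9% downward. Only P2rx7 also changed by at least 1.5-fold, which 4.87% of all genes did, 2.47% upward and 2.39% downward. The log2 fold changes of the 9 genes ran from -0.79 to 0.30, with a median of 0.06 against -0.00063 over all genes tested. The CPM of the 2 groups did not overlap for 4 genes, Entpd1, Dpp4, P2rx7 and Adora2a, which was the case for 38.9% of all genes. A lower value in these bulk samples can mean fewer cells with the transcript or less of it per cell, and the 2 cannot be told apart.

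**Figure D1:**
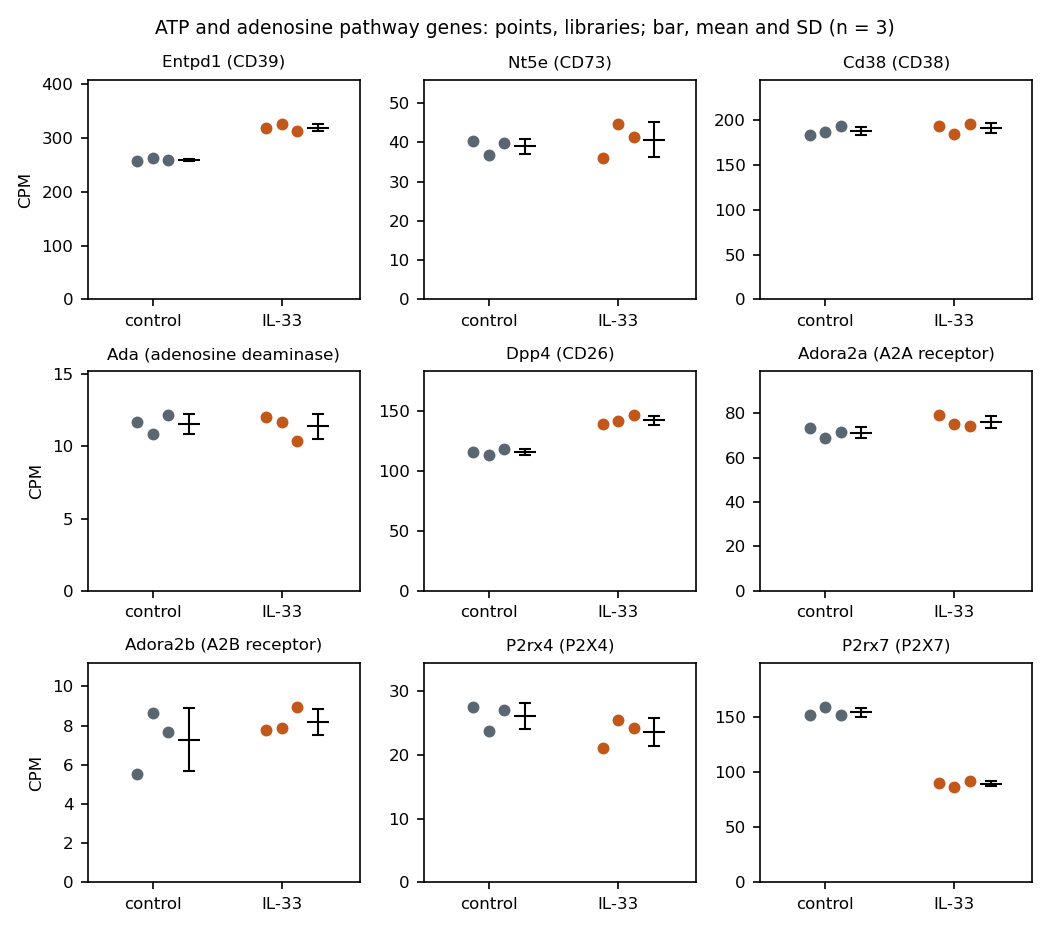
CPM (y axes, each from 0) of the 9 genes in the 3 control and 3 IL-33 libraries, 1 panel per gene. Points are libraries, and bars give the mean and SD. P2rx7 dropped from between 152 and 159 to between 86.9 and 91.7 CPM, whereas the points of Nt5e, Cd38, Ada, Adora2b and P2rx4 overlapped.

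P2rx7 encodes the P2X7 channel, known on T cells for calcium entry, shedding of surface proteins and cell death at high ATP. The gene (ENSMUSG00000029468) lies on the plus strand of chromosome 5, from 122643911 to 122691432 in GRCm38. Its level was 151.9, 159.3 and 152.1 CPM in the control libraries and 89.8, 86.9 and 91.7 CPM in the IL-33 libraries, which rested on 1822 to 3333 counts each. Every IL-33 library lay at 56.3% to 59.4% of the control mean. The mean fell from 154.4 ± 4.20 to 89.5 ± 2.41 CPM (SD, n = 3), a log2 fold change of -0.79 with a standard error of 0.040 and an adjusted p of 1.95e-33. Control cells thus held 1.73 times as much of the transcript. Dendritic cells can also carry P2X7, and of the 8 dendritic and myeloid markers tested Itgax fell by 1.07 on the log2 scale and Cd74 by 0.58, while Fscn1 (1.41), Ccr7 (1.14), Itgam (0.88) and H2-Ab1 (0.29) rose. Their part in the result was not tested.

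RefSeq gives 2 starts for P2rx7 in GRCm38.p6. The 250 bases before each are shown because this gene changed most among the 9, with capitals for a match to the AP-1 letters TGANTCA on either strand. The first window, chr5:122643677-122643926 on the plus strand, holds 1 match, 249 bases before the start, and 6.75% of 32851 windows of that length held at least 1. The second, chr5:122650133-122650382, holds none.
P2rx7 start 1: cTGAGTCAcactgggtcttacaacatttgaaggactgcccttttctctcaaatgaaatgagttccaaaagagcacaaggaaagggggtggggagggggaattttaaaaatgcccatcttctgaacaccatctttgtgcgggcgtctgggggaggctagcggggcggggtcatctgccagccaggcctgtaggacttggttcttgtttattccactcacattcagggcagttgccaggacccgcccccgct
P2rx7 start 2: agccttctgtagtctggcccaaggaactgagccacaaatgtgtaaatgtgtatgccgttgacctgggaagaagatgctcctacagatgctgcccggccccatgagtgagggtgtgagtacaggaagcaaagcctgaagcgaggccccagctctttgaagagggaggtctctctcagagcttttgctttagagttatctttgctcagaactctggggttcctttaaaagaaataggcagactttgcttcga
These windows were also searched for NF-kB letters (GGGA, N, TT, N and CC in a row, where N is any base, in 0.98% of windows), the CRE core TGACG (17.8%) and the RUNX letters TGTGGT (4614 of 32851 windows), with no match in either on both strands. Windows were found for 8 of the 9 genes, and of their 10 windows 0 held the NF-kB letters, 1 held AP-1, 3 held the CRE core and 0 held RUNX. A match is only a run of letters and not a bound site.

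P2rx4 encodes the P2X4 channel, which opens at lower ATP than P2X7 and sits partly in lysosomes. It (ENSMUSG00000029470) lies 16112 bases beyond P2rx7 on the same strand, from 122707544 to 122729738 on chromosome 5. Its level was 27.6, 23.8 and 27.1 CPM in control and 21.2, 25.5 and 24.2 CPM in IL-33 libraries. The groups overlapped, and the log2 fold change of -0.15 (95% interval -0.31 to 0.0082) gave an adjusted p of 0.16. The mRNAs of P2rx7 and P2rx4 shared 0 windows of 50 bases, so no stretch of that length matches both without a mismatch. Camkk2, a kinase gene 1432 bases from P2rx4 on the other strand, fell by 0.36 on the log2 scale with an adjusted p of 5.02e-06.

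Per kilobase of exon, P2rx7 stood 6.96 times above P2rx4 in control and 4.47 times in IL-33 libraries. The log2 of this ratio within a library was 2.80 ± 0.15 and 2.16 ± 0.16 (SD, n = 3) and did not overlap between groups. An exact permutation test gave p = 0.1, the smallest that 3 against 3 libraries allow, and 0.133 adjusted over the 4 ratios computed. Of the other P2X genes, 5 in all, 2 were tested and 1 fell, 50.0% against 27.5% of all genes. P2rx3, a channel best known from sensory neurons, had 14.1, 13.2 and 12.1 CPM in control and 8.42, 9.25 and 7.20 CPM in IL-33 libraries. Its log2 fold change was -0.67 with a standard error of 0.12 and an adjusted p of 3.9e-06, and -0.57, below 1.5-fold, without IL-33 replicate 3. Its exons share 51 bases with Ssrp1 on the other strand, a gene with 36968 counts and a log2 fold change of -0.27, and since the use of strand in the counting was not given in the sources used here, reads of both cannot be told apart there. P2rx1 stood at 1.24 and 1.20 CPM (adjusted p = 0.961). As a share of all P2X transcripts per length, P2rx7 made up 74.0% ± 1.24 in control and 68.5% ± 2.54 in IL-33 libraries, and P2rx4 10.7% ± 0.972 and 15.3% ± 1.15 (SD, n = 3).

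Cd38 encodes the surface enzyme that breaks down NAD and so removes the substrate of ART2. The gene (ENSMUSG00000029084) lies on chromosome 5 from 43868553 to 43912375 on the plus strand. Its level was 184.0, 186.7 and 193.6 CPM in control and 193.8, 185.2 and 196.1 CPM in IL-33 libraries. The groups overlapped, with a fold change of 1.02 (95% interval 0.971 to 1.07) and an adjusted p of 0.617. Its neighbour Bst1, a related enzyme 24567 bases away, had 10.15 ± 0.84 and 10.17 ± 1.06 CPM (SD, n = 3; adjusted p = 0.986).

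Of the 8 symbols listed for NAD enzymes at the cell surface besides Cd38, 7 had a count. Among these, 4 were tested, and 1 rose and 2 fell. This was 75.0% of those tested against 27.5% of all genes. Both genes of the ART2 locus fell. Art2b, which encodes the ART2.2 protein of mouse T cells, had 117.2, 114.3 and 107.9 CPM in control and 85.8, 80.5 and 86.4 CPM in IL-33 libraries. The groups did not overlap, and the log2 fold change was -0.43 with a standard error of 0.042 and an adjusted p of 2.66e-15. Art2a-ps, annotated as a polymorphic pseudogene, went from 65.7 ± 0.447 to 47.4 ± 0.921 CPM (SD, n = 3), a log2 fold change of -0.47 with an adjusted p of 5.58e-13. The 2 genes share 142 windows of 50 bases, 11.8% of those of Art2a-ps and 5.02% of those of Art2b, so the split of reads between them is uncertain. Art4, a relative known as a blood group antigen, rose from 4.67 to 6.66 CPM with an adjusted p of 0.00909, and of 0.14 without IL-33 replicate 2. In both ART2 genes the log2 fold change was smaller than in P2rx7, with 95% intervals of -0.51 to -0.34 for Art2b and -0.87 to -0.71 for P2rx7.

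**Figure D2:**
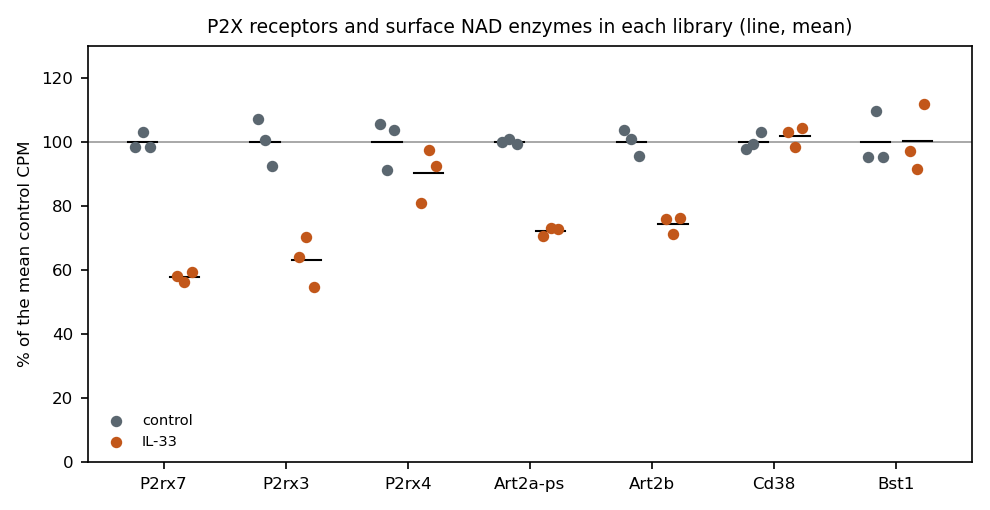
Level of P2X and NAD enzyme genes in each library as a percentage of the gene's control mean (y axis, from 0), with points for the control and IL-33 libraries and lines for the means. P2rx7 lay at 56.3% to 59.4% of its control mean with IL-33 and Art2b at 71.1% to 76.3%, while Cd38 overlapped.

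The promoter of Art2b is shown beside those of P2rx7 because both transcripts fell. The window, chr7:101581162-101581411 on the minus strand, is given in the direction of the gene, and its capitals mark 1 AP-1 match 104 bases before the start, 1 CRE core 5 bases before it and 1 RUNX match 204 bases before it.
Art2b: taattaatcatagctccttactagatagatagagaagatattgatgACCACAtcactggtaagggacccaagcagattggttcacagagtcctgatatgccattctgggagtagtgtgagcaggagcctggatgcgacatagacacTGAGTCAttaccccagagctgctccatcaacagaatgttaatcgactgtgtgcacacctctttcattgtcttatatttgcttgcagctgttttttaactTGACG

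Entpd1 encodes CD39, the enzyme that opens the way from ATP to adenosine. The gene (ENSMUSG00000048120) lies on chromosome 19 from 40612366 to 40741602 on the plus strand. Its level was 256.9, 262.4 and 259.1 CPM in control and 319.7, 326.7 and 312.6 CPM in IL-33 libraries, on 5333 to 6946 counts each. All 3 IL-33 libraries stood above all 3 controls. The mean rose from 259.5 ± 2.80 to 319.6 ± 7.06 CPM (SD, n = 3), a fold change of 1.23 (95% interval 1.18 to 1.29) with an adjusted p of 2.85e-14. The size stayed under 1.5-fold, and over 12 alternative settings the log2 fold change ran from 0.29 to 0.32. Tctn3, which starts 133 bases away on the other strand, had a log2 fold change of -0.04 (adjusted p = 0.826).

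Of the starts that RefSeq gives for Entpd1, the second is shown, chr19:40659520-40659769 on the plus strand, since the first lies beside Tctn3. Capitals mark its 1 CRE core, 183 bases before the start and read on the other strand, and the window at the first start holds 1 such site, 135 bases before it. The primers that the study lists for mouse CD39 are given below the promoter. Both match 5 of 11 Entpd1 transcripts and those of 0 other genes, and they enclose a product of 57 bases.
Entpd1 start 2: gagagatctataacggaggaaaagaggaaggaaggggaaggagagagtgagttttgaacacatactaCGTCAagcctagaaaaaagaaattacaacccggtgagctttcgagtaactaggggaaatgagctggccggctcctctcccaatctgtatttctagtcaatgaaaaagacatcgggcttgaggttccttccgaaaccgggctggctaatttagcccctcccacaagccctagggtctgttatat
CD39 sense primer: agatgaaatcggtgcg
CD39 antisense primer: ggtatcagttcggtgga

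Nt5e encodes CD73, which makes adenosine from AMP. The gene (ENSMUSG00000032420) lies on chromosome 9 from 88327197 to 88372092 on the plus strand. Its level was 40.3, 36.7 and 40.0 CPM in control and 36.0, 44.7 and 41.5 CPM in IL-33 libraries. The groups overlapped fully, with a fold change of 1.04 (95% interval 0.954 to 1.14) and an adjusted p of 0.533. Its neighbour Snx14, 4658 bases away on the other strand, rose by 0.31 on the log2 scale (adjusted p = 2.22e-04).

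The first step of the pathway was thus present at a far higher transcript level than the next. Per kilobase, Entpd1 stood 10.3 times above Nt5e in control and 12.1 times in IL-33 libraries. The log2 ratio was 3.36 ± 0.090 and 3.60 ± 0.15 (SD, n = 3) and did not overlap, with p = 0.1 in the exact permutation test and 0.133 after adjustment. Of 9 symbols listed for other surface enzymes of nucleotides, 7 had a count. Among these, 3 were tested and 1 rose, 33.3% against 27.5% of all genes. This was Acpp, an acid phosphatase that can also make adenosine from AMP, at 58.2 ± 0.888 and 65.0 ± 0.949 CPM (SD, n = 3), a log2 fold change of 0.16 with an adjusted p of 0.00886. Enpp1, which splits ATP to AMP and pyrophosphate, stood at 6.45 and 7.26 CPM (adjusted p = 0.415). Among the surface enzymes that split nucleotides, Entpd1 made up 78.0% ± 0.413 of transcripts per length in control and 80.0% ± 0.445 in IL-33 libraries, Acpp 13.3% and 12.4%, and Nt5e 7.61% and 6.61%.

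Ada encodes adenosine deaminase, whose loss causes severe immune deficiency. The gene (ENSMUSG00000017697) lies on chromosome 2 from 163726584 to 163750239 on the minus strand. Its level was 11.68, 10.83 and 12.14 CPM in control and 12.04, 11.68 and 10.40 CPM in IL-33 libraries. The groups overlapped, and the fold change was 0.984 (95% interval 0.840 to 1.15; adjusted p = 0.911). Adk, the kinase that removes adenosine inside the cell by turning it into AMP, rose from 19.9 ± 1.29 to 24.7 ± 1.84 CPM (SD, n = 3), a log2 fold change of 0.31 with an adjusted p of 0.0021. Per kilobase, Ada stood 2.47 times above Adk in control and 1.96 times in IL-33 libraries. The log2 of this ratio differed by -0.33 without overlap (exact permutation p = 0.1, adjusted 0.133). The order of the 2 genes rests on their exon lengths, 2002 bases for Ada and 8526 for Adk, merged over all annotated transcripts. By CPM alone Ada was the lower, at 11.55 and 11.37 against 19.94 and 24.72.

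Dpp4 encodes CD26, a surface peptidase and costimulatory protein of T cells that in humans anchors ADA outside the cell. The gene (ENSMUSG00000035000) lies on chromosome 2 from 62330073 to 62412231 on the minus strand. Its level was 115.8, 113.7 and 118.3 CPM in control and 139.1, 141.6 and 146.6 CPM in IL-33 libraries. The groups did not overlap, and the mean rose from 115.9 ± 2.30 to 142.5 ± 3.81 CPM (SD, n = 3), a fold change of 1.23 (95% interval 1.17 to 1.30) with an adjusted p of 2.71e-10. Its exons share 232 bases with the antisense gene Gm13561, which had 23 counts in all. Slc4a10, 3343 bases away on the other strand, rose by 0.76 on the log2 scale (adjusted p = 0.0204). The 250 bases before the RefSeq start, chr2:62412232-62412481 on the minus strand, are shown because Dpp4 rose by as much as Entpd1, and they hold no match to any of the 4 motifs.
Dpp4: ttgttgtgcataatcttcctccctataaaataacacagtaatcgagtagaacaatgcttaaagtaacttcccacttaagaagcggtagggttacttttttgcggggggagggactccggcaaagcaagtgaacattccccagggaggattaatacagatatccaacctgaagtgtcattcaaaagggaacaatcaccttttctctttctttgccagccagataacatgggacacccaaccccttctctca

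**Figure D3:**
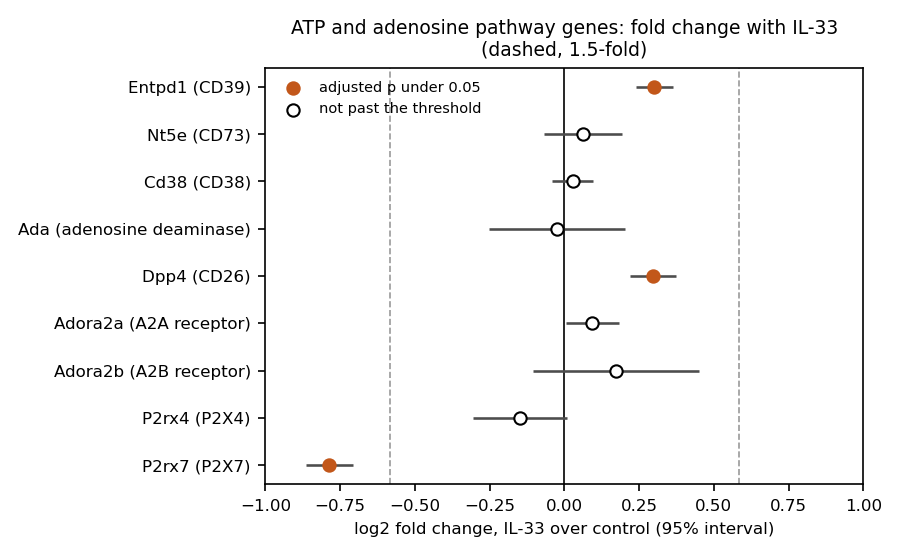
Log2 fold change of the 9 genes with IL-33 against control (x axis), with 95% intervals, and dashed lines at 1.5-fold in either direction. Only P2rx7, at -0.79, lay beyond a dashed line, and the intervals of Nt5e, Cd38, Ada, Adora2b and P2rx4 crossed 0.

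Adora2a encodes the A2A receptor, the main adenosine receptor of T cells. The gene (ENSMUSG00000020178) lies on chromosome 10 from 75316877 to 75334784 on the plus strand. Its level was 73.5, 68.6 and 71.5 CPM in control and 79.0, 74.9 and 74.1 CPM in IL-33 libraries. The groups did not overlap, but the fold change of 1.07 (95% interval 1.003 to 1.14) gave an adjusted p of 0.115 and did not pass. Adora2b, the gene of the A2B receptor of lower affinity (ENSMUSG00000018500, chromosome 11 from 62248984 to 62266453, plus strand), had 5.51, 8.66 and 7.67 CPM in control and 7.77, 7.87 and 8.96 CPM in IL-33 libraries. Control replicate 1 was the lowest, the groups overlapped, and the fold change was 1.13 (95% interval 0.930 to 1.37; adjusted p = 0.392). The log2 ratio of Adora2a over Adora2b per kilobase was 2.58 ± 0.38 and 2.48 ± 0.15 (SD, n = 3; exact permutation p = 0.9). Of the other adenosine receptors, Adora3 stood at 3.06 and 2.70 CPM (adjusted p = 0.599) and Adora1 had no entry. Adora2a made up 83.0% ± 3.39 of adenosine receptor transcripts per length in control and 82.7% ± 1.66 in IL-33 libraries.

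Of the 30 genes of the cAMP pathway that the A2 receptors act through, 22 were tested and 4 passed the test, 18.2% against 27.5% of all genes, all of them higher. All 4 with higher levels are named, Crem and Pde4b after their values were seen. Pde4d, a phosphodiesterase that breaks down cAMP, had 42.8, 40.9 and 41.7 CPM in control and 65.3, 66.4 and 65.6 CPM in IL-33 libraries, a log2 fold change of 0.65 with an adjusted p of 2.23e-19. Pde3b rose from 231.9 ± 7.79 to 300.8 ± 9.22 CPM (log2 fold change 0.38, adjusted p = 3.55e-18) and Pde4b from 87.5 ± 2.92 to 104.4 ± 1.76 CPM (0.26, adjusted p = 2.62e-07; SD, n = 3). Crem, a transcription factor induced by cAMP, rose from 84.2 ± 4.08 to 107.9 ± 6.10 CPM (log2 fold change 0.36, adjusted p = 2.02e-11). The most abundant genes of the list per length, the cyclase Adcy7 and the kinase subunit Prkar1a, had log2 fold changes of -0.07 and -0.05 and adjusted p-values of 0.0548 and 0.123.

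Among the 9 genes of P2Y receptors, which couple to G proteins, 6 were tested and 2 rose, 33.3% against 27.5% of all genes. P2ry14, a receptor for UDP-glucose, had 31.1, 36.9 and 34.5 CPM in control and 52.5, 52.9 and 49.0 CPM in IL-33 libraries (log2 fold change 0.59, adjusted p = 5.14e-14). P2ry12, an ADP receptor, had 16.5, 18.1 and 18.3 CPM in control and 23.8, 27.9 and 28.5 CPM in IL-33 libraries (0.60, adjusted p = 3.97e-09). Both lay close to 1.5-fold, and each dropped below it when control replicate 1 or IL-33 replicate 2 was left out, as P2ry12 did without IL-33 replicate 3 and P2ry14 without IL-33 replicate 1, at the lowest to 0.55 for P2ry12 and 0.53 for P2ry14. Both genes lie inside Med12l on the other strand, which rose by 0.23 on the log2 scale (adjusted p = 0.00206). Of their exon bases, 9 of P2ry12 and 0 of P2ry14 are shared with exons of Med12l. P2ry10, a receptor for lysophospholipids, was the most abundant at 212.0 and 215.1 CPM (adjusted p = 0.698).

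Of 10 genes of ATP release 8 were tested and 1 passed the test, 12.5% against 27.5% of all genes. This was the volume-regulated channel subunit Lrrc8b, which fell from 30.7 ± 0.716 to 24.4 ± 0.858 CPM (SD, n = 3; log2 fold change -0.33, adjusted p = 1.55e-04). Lrrc8c stood at 368.8 and 384.9 CPM (adjusted p = 0.116), and Slc17a9, which loads ATP into vesicles, at 40.9 and 42.4 CPM (adjusted p = 0.58). Of 8 nucleoside transporters 5 were tested and 1 passed and fell, a smaller share than the 27.5% of all genes. This was Slc29a1, the carrier ENT1 that takes up adenosine, with 29.3, 32.1 and 29.8 CPM in control and 23.0, 23.6 and 19.4 CPM in IL-33 libraries (log2 fold change -0.47, adjusted p = 4.25e-07). Slc28a2, a concentrative carrier, stood at 159.9 and 165.1 CPM (adjusted p = 0.382).

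Inside the cell, 20 of 24 purine enzyme genes were tested, and 7 rose and 5 fell, so 12 of the 20 passed against 27.5% of all genes. Ak4, a mitochondrial adenylate kinase, rose from 21.6 ± 2.07 to 38.2 ± 2.64 CPM (SD, n = 3; log2 fold change 0.82, adjusted p = 2.59e-17). Xdh, which makes uric acid in purine breakdown, was abundant and fell from 1295 ± 16.7 to 1166 ± 10.5 CPM (SD, n = 3; log2 fold change -0.15, adjusted p = 3.67e-08). Ak1, another adenylate kinase, had a log2 fold change of 0.83 with an adjusted p of 0.0487. This call did not hold in all settings: Ak1 lost it without any 1 of the libraries but IL-33 replicate 1, with adjusted p-values up to 0.171. Of 8 partners and targets of P2X7, 6 were tested and 1 rose, 16.7% against 27.5% of all genes. Nlrp3, the inflammasome sensor that P2X7 activates in myeloid cells, was low, with 2.12, 2.02 and 3.19 CPM in control and 5.21, 5.34 and 4.95 CPM in IL-33 libraries (log2 fold change 1.07, adjusted p = 3.36e-06). The sheddase Adam10 stood at 187.5 and 183.2 CPM (adjusted p = 0.521) and the pore protein Gsdmd at 64.4 and 60.5 CPM (adjusted p = 0.193). Nlrp3 is also expressed by myeloid cells, whose summed markers, given above, are led by Itgax, which fell. Of the 8 dendritic and myeloid markers tested, 4 rose and 2 fell. The part of these cells in the rise of Nlrp3 was not tested.

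In all 10 lists of the wider pathway, 113 symbols, 77 genes were tested. Of these 26 passed the test, 33.8% against 27.5% of all genes, with 16 higher and 10 lower and a median log2 fold change of 0.014. Past both thresholds were 7, 9.09% against 4.87% of all genes, 6 of them higher and P2rx3 lower. Of these 7, Ak1, P2rx3, P2ry12 and P2ry14 did not stay past both in every setting. The lists were chosen with earlier results of these data known, so the shares are not a test of the pathway.

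**Figure D4:**
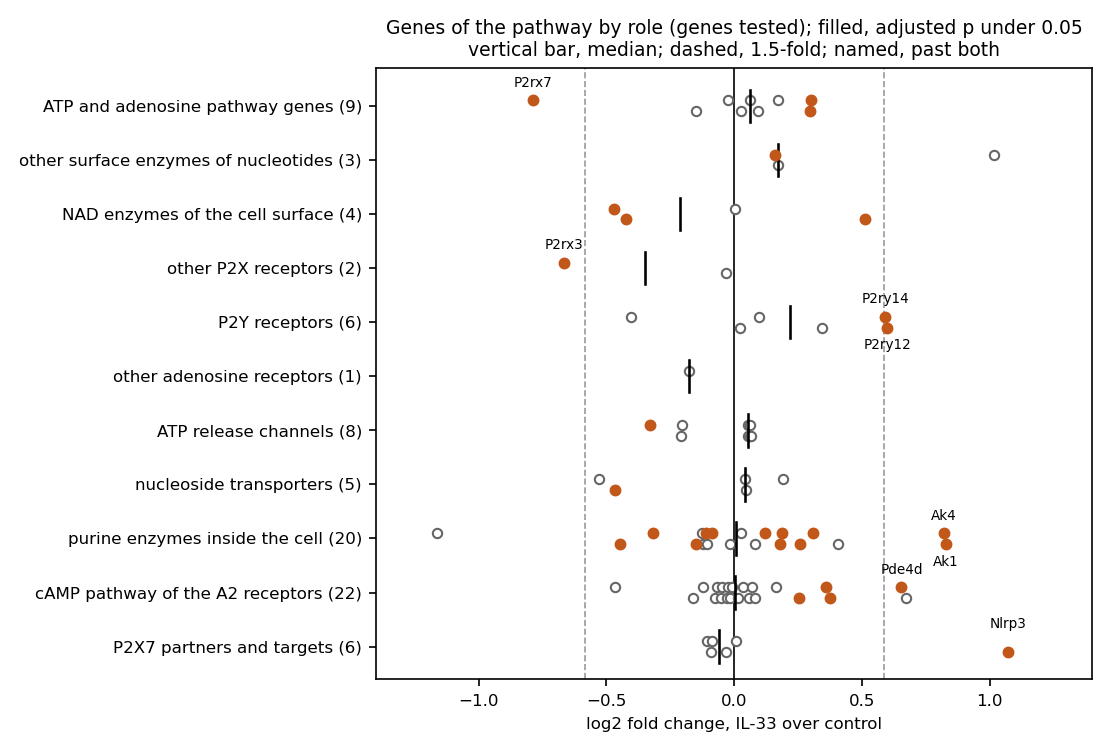
Log2 fold change with IL-33 (x axis) of every tested gene of the pathway, grouped by role (y axis, with the number of genes), with filled points for an adjusted p under 0.05 and dashed lines at 1.5-fold. P2rx7 and P2rx3 are the points that passed beyond the lower line, and Nlrp3, Ak1, Ak4, Pde4d, P2ry12 and P2ry14 those beyond the upper.

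Per kilobase of exon, the 9 genes differed widely in level. In control libraries the mean level fell from Cd38 (48.4 CPM per kilobase) over Entpd1 (46.5), P2rx7 (25.9), Adora2a (23.2) and Dpp4 (18.3) to Ada (5.77), Nt5e (4.53), Adora2b (3.95) and P2rx4 (3.72). The ranges of neighbours in this order were separate except from Nt5e to Adora2b and from Adora2b to P2rx4. In IL-33 libraries the order was Entpd1 (57.3 CPM per kilobase), Cd38 (49.3), Adora2a (24.8), Dpp4 (22.5), P2rx7 (15.0), Ada (5.68), Nt5e (4.74), Adora2b (4.44) and P2rx4 (3.36), where the ranges of Ada and Nt5e and of Nt5e and Adora2b overlapped. In this order per length, Entpd1 thus passed Cd38, and P2rx7 moved from the third to the fifth place. The order depends on the merged exon lengths. By CPM alone, Entpd1 already stood above Cd38 in control libraries, at 259.5 against 188.1. Over all 6 libraries, the level of Entpd1 was above 93.9% and that of P2rx4 above 42.8% of the 14658 tested genes with a known length.

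**Figure D5:**
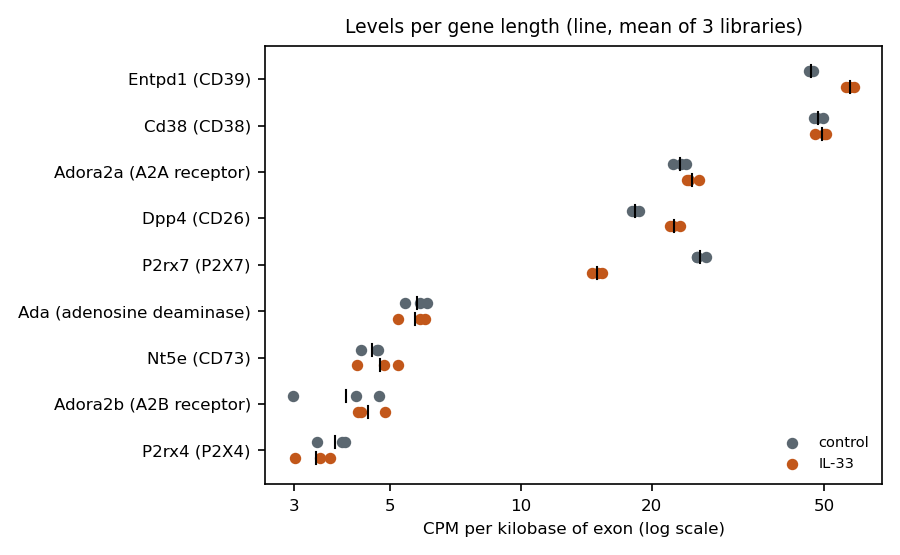
Level per gene length of the 9 genes (CPM per kilobase of exon, log axis) in control and IL-33 libraries. Points are libraries and lines the mean of 3, and Entpd1 reaches 57.3 with IL-33 while P2rx7 drops from 25.9 to 15.0.

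The genes whose pattern over the 6 libraries was most like that of Entpd1 were Myo1g, Cmip and Tnfrsf8, out of 8838 tested genes with a mean of at least 10 CPM. Likeness was the root mean square difference of log2 CPM after centring each gene, and it was 0.0084 for Myo1g, 0.0096 for Cmip and 0.013 for Tnfrsf8. Myo1g, an unconventional myosin of blood cells, went from 400.4 to 496.0 CPM. Tnfrsf8, which encodes the activation receptor CD30, went from 460.9 to 576.3 CPM, and Cmip from 175.5 to 216.4 CPM. With 6 libraries in 2 groups, likeness rests mainly on the shared difference between groups.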

How the data were processed

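Total RNA was sequenced from 3 control and 3 IL-33 libraries of DNT cells, grouped by their labels. The deposited table holds raw counts per gene, not normalized, and a column of the mean over libraries (a signal in the deposited table, not used here). The submitters' processing notes name Bowtie 0.12.2 and mm8, and the counting program, its annotation and its use of strand are stated in neither the labels nor the methods. Labels and the methods name different library kits. Ensembl identifiers were matched to GENCODE M21 (GRCm38; 26086 of 26128 genes) for symbols, positions and exon lengths, and promoters came from RefSeq tables of GRCm38.p6. Exon lengths merge all annotated transcripts of a gene, and levels per length between genes depend on this choice.

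Genes with low counts were removed by filterByExpr of edgeR, and the counts of the rest were scaled by TMM. A gene was kept if it had the CPM of about 10 counts in at least 3 libraries and 15 counts in total. The groups were compared with edgeR 4.0.16 (R 4.3.3; robust quasi-likelihood fit, two-sided, no covariates) with Benjamini-Hochberg adjustment over the 14671 genes tested. Thresholds were an adjusted p of 0.05 and 1.5-fold. Means and SDs are of CPM. Ratios within a library were tested by exact permutation. The code was tested on simulated data. The alternatives were DESeq2 1.42.0, limma 3.58.1 (voom), other size factors, filters and thresholds, a replicate block and each library left out in turn. Chi-square per gene between libraries of a group ran from 2.64 to 3.67, so none was a copy.

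The 9 genes and all lists were chosen with earlier results of these data known. Named were all 9 genes, pathway genes past both thresholds, in each list the 2 most abundant per length and the 2 with the smallest adjusted p that passed, the NAD enzymes Bst1, Art2a and Art2b, the 3 genes most like Entpd1, neighbours within 30 kb that bear on a value, and leading or absent markers. Some genes that this rule names are not reported here. Adk, Art4, Crem and Pde4b, where they fell outside this rule, were named after their values were seen. Of the symbols listed, Acp3, Art2a and Slc28a2b are not in GENCODE M21, where Acpp and Art2a-ps stand for the first 2.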

Additional observations from a re-analysis of the deposited data

How the results depend on the processing

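Over all genes, 714 were past both thresholds. Alternatives gave 501 (DESeq2) to 724 (voom), and 621 to 719 with 1 library left out, but the adjusted p alone gave 4036 and a test against the fold threshold 113. The 3 calls among the 9 genes held in all 12 alternatives. Of 108 alternative fold changes of these genes 105 kept direction and side of the threshold and 3 reversed, for Nt5e and Ada, neither of which had passed. With 1 library left out, the log2 fold change ran from -0.0078 to 0.15 for Nt5e, from -0.068 to 0.040 for Ada, from -0.080 to 0.073 for Bst1, from -0.24 to 0.24 for P2rx1 and from -0.0045 to 0.050 for P2ry10. The log2 difference of Adora2a over Adora2b ran from -0.26 to 0.11. The single reversals were -0.0078 for Nt5e without IL-33 replicate 2, 0.014 and 0.040 for Ada without control replicate 3 or IL-33 replicate 3, and 0.11 for the Adora2a to Adora2b ratio without control replicate 1. They were -0.030 for Bst1 without control replicate 1 or 3 and -0.080 without IL-33 replicate 3, 0.24 for P2rx1 without control replicate 2 or IL-33 replicate 1, and -0.0045 for P2ry10 without control replicate 3. The cause was not tested. The wider pathway list held 26 calls, and 21 to 28 under the alternatives. Adcy7 passed with DESeq2, with voom and without IL-33 replicate 3. With the replicate number as a block, 666 genes were past both thresholds. The numbers are not known to pair the libraries, since deviations of control and IL-33 libraries with the same number correlated at 0.0032 to 0.0116. Every library correlated best with its own number, a hint from values near 0. The block ended the call of Ak1 (adjusted p = 0.0583) and of no other named gene. Depth limits values near 0.148 CPM, and intervals cover counting error and the spread between libraries only.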
